A study of Mus musculus with 24 samples.

Results

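Sox9+ Prelp/Ogn+ cells of Panc02 tumors were examined in the single-cell RNA-Seq of tumors from mice given anti–CTLA-4, anti–PD-1, and the neoantigen vaccine PancVAX in all combinations. Cells were chosen by their own transcripts. A barcode entered if it held at least 1000 unique molecular identifiers (UMIs, each one counted RNA molecule) with under 10% from mitochondrial genes, at least 1 UMI of Sox9, at least 3 UMIs of Prelp and Ogn together, no Ptprc or Pecam1 UMI, and at most 1 UMI of Krt5 and Krt14 together. No upper limit on UMIs was set. This kept 31174 of 120912 barcodes that met the limits on UMIs and mitochondrial RNA (25.8%), of 144994 barcodes in all. In sequence, 63211 barcodes had Sox9, 34741 of these also had 3 UMIs of Prelp and Ogn, and 31976 of these had no Ptprc, the pan-leukocyte gene. The limits on keratinocyte keratins and on the endothelial gene Pecam1 took away few more, to 31660 and then 31174.

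Sox9 (chr11:112782210-112787757, RefSeq coordinates on GRCm38.p6, the assembly of mm10) encodes a transcription factor of pancreatic duct cells, cartilage, and several progenitor cells. Prelp (chr1:133910304-133930102) and Ogn (chr13:49608015-49624501, also called osteoglycin) encode small leucine-rich proteoglycans, secreted proteins that bind collagen in the extracellular matrix and are made mostly by fibroblasts and other connective tissue cells. Cancer-associated fibroblasts are host cells that lay down type I collagen, whereas carcinoma cells that have taken on a mesenchymal state can express matrix genes while they keep simple epithelial keratins. Simple epithelial keratins (Krt8 and Krt18), fibrillar collagens, fibroblast transcription factors, and genes of the Y chromosome therefore help to describe cells of this kind in a tumor grown from an implanted line.

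Panc02, a murine pancreatic cancer cell line, was implanted s.c. in male WT C57BL/6 mice of 6–7 weeks, at 3000000 cells per mouse, and tumors were harvested on day 38. The 8 treatment groups were PancVAX + Anti-PD-1 + Anti-CTLA-4, PancVAX + Anti-CTLA-4, PancVAX + Anti-PD-1, PancVAX, Anti-PD-1 + Anti-CTLA-4, Anti-CTLA-4, Anti-PD-1, and Isotype Control. PancVAX (peptides with the adjuvant AddaVax and a STING agonist) was given on days 12 and 19, with PBS in its place in the groups without it. Anti–PD-1 (100 µg) was given 2 times a week from day 12 and anti–CTLA-4 (100 µg) on days 15 and 22. A figure legend of the study differs, with fewer implanted cells, tumors of an earlier day, and the second anti–CTLA-4 dose on day 19. Dissociated tumors of a treatment were pooled, and each treatment was sequenced from a whole-tumor preparation and from a Percoll preparation. Percoll is a density separation, which the study used to enrich immune cells. The pair of libraries from 1 treatment is called a pool here, which gave 8 pools. The preparations were also the sequencing batches, so that both cannot be told apart. A treatment is 1 pool, with no further replicate, and P values over pools measure the spread between pools of different treatments.

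The 16 RNA libraries held 77132398–176233225 UMIs each and 4881–10640 barcodes within the limits, of which 1079–3029 per library were Sox9+ Prelp/Ogn+ cells. These cells were deep, with a median of 18304 UMIs (quartiles 12619 and 26699.5) and 4075 genes, against 5037.5 UMIs in the 43460 Ptprc-positive barcodes. The study kept barcodes of 200–3000 genes and 1000–10000 UMIs for its own analysis. Only 4282 of the Sox9+ Prelp/Ogn+ cells (13.7%) fell within those limits, against 73.8% of Ptprc-positive barcodes. A barcode sequence found in more than 1 library was carried by 5372 of these cells (17.2%) and by 17.3% of all barcodes. The Percoll library of PancVAX + Anti-PD-1 stood apart. Its Sox9+ Prelp/Ogn+ cells had a median of 13205 UMIs against 17289–20482 in the other Percoll libraries, and 2.58 UMIs of 19 immune genes per 10000 against 0.571–1.23.

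Levels are given as CPM, the UMIs of a gene scaled to 1000000 UMIs summed over the cells of a group. Over the 16 libraries, the lowest, median, and highest levels of Sox9 in the Sox9+ Prelp/Ogn+ cells were 434, 702 and 1106 CPM. Those of Prelp were 300.2, 388 and 480.1 CPM and those of Ogn 177, 252 and 331 CPM. A cell held a median of 11 Sox9 UMIs and 9 of Prelp and Ogn together. Prelp was the more regular of the pair, with no UMI in 2.58% of the cells, whereas Ogn had none in 20.7%. These values describe what selected the cells and were not tested. The other markers listed for these cells were also present. Gprc5a (a retinoic acid–induced orphan receptor) was at 185, 279 and 475 CPM, Matn2 (a matrilin, an adaptor protein of the matrix) at 117, 165 and 224 CPM, and Mxra8 (a cell surface protein of matrix remodeling) at 219.5, 273 and 365 CPM. The limit on Prelp and Ogn fell on a continuous range. The 3417 cells with exactly 3 Prelp and Ogn UMIs had Krt8 at 867 CPM, Gprc5a at 248 CPM, and Mxra8 at 176 CPM, and the 4217 otherwise alike barcodes with 2 had 883, 244, and 161 CPM. The Sox9 limit was less even, with Col1a1 at 360.2 CPM in the 2006 cells with 1 Sox9 UMI and at 1451 CPM in the 2276 barcodes with none.

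To see whether these cells resembled fibroblasts or keratin-positive tumor cells, 3 comparison gates were drawn on barcodes under the same limits on Ptprc, Pecam1, Krt5, and Krt14. Receptor-gated cells (208) had no Sox9, Prelp, or Ogn UMI, at least 1 UMI of the platelet-derived growth factor receptor genes Pdgfra and Pdgfrb, and at least 3 UMIs of Col1a1, Col1a2, and Col3a1. This gate was mixed, since 40.9% of its cells had 3 or more UMIs of Krt8 and Krt18. A stricter gate was therefore added after the data were seen. These collagen-gated cells (297) had no Sox9, no Krt8 or Krt18, a Pdgfra or Pdgfrb UMI, and at least 10 UMIs of Col1a1 and Col1a2, with any Prelp and Ogn. Keratin-gated cells (16296, median 22092.5 UMIs) had at least 3 UMIs of Krt8 and Krt18 and no Prelp or Ogn, with any Sox9.

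Simple epithelial keratins were nearly universal in the Sox9+ Prelp/Ogn+ cells, although the rule did not use them. At least 3 UMIs of Krt8 and Krt18 were found in 30077 cells (96.5%). Krt18 was at 1146 CPM (972–1327 over libraries), against 1275 CPM in keratin-gated and 473 CPM in receptor-gated cells. Krt8 was at 714 CPM (566–907), against 899 and 326 CPM. Free RNA gives some UMIs to cells that do not express a gene, and a Krt18 UMI was seen in 97.9% of the Sox9+ Prelp/Ogn+ cells and in 20.8% of Ptprc-positive barcodes. When every cell was thinned to 3000 UMIs, the shares were 84.5% and 18.5%. Other genes of the epithelial list were low. Epcam and Cdh1 (E-cadherin), the classic epithelial adhesion genes, were at 1.81 and 6.08 CPM, the duct keratin Krt19 at 9.74 CPM, and Cldn7, a tight junction claudin, at 26.1 CPM. Grhl2 and Ovol2, transcription factors that hold the epithelial state, were at 0.00299 and 0.00598 CPM in the Sox9+ Prelp/Ogn+ cells. The list does not stand for every epithelial gene. Outside it, Itgb4, Fermt1, and Prss22 were at 75.8, 102, and 141 CPM (means of 7 pools). They were picked from the genes furthest above collagen-gated cells, a gate that left out cells with Krt8 or Krt18. In collagen-gated cells these 3 genes were at 0.389, 0.389, and 0.443 CPM, a contrast that follows from how they were picked. Pdx1, a transcription factor of pancreatic development, was at 25 CPM (20.7–29), near the 18.9 CPM of keratin-gated cells and against 0.189 CPM in collagen-gated cells. Spp1 (osteopontin), which duct cells and many tumors secrete, was at 1416 CPM.

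Mesenchymal genes were expressed beside the keratins. Vim (vimentin) was at 3170.2 CPM (2386–3723), Fn1 (fibronectin) at 2584 CPM, and S100a4, a calcium-binding protein of motile cells, at 1225 CPM. Of the transcription factors that repress Cdh1 and are used to mark the epithelial-mesenchymal transition, Zeb2 was at 108 CPM, Snai1 at 65.8 CPM, and Zeb1 at 32.8 CPM. Snai2, Twist1, and Prrx1 were nearly absent, at 0.0792, 0.399, and 0.948 CPM, whereas collagen-gated cells had 30.3, 110.0, and 300.4 CPM. Both receptors of platelet-derived growth factor were found, Pdgfra at 89.5 CPM and Pdgfrb at 88.2 CPM, against 132 and 194 CPM in collagen-gated and 29.8 and 29.6 CPM in keratin-gated cells. Type I collagen was low. Col1a1 was at 49.1 CPM (13.1–78.5 over libraries) against 11448 CPM in collagen-gated cells, which the gate set high, and Col1a2 was at 30.7 CPM against 8555.5 CPM. Fibroblast genes that no gate used were low as well. Postn (periostin) was at 14.3 against 4216 CPM, Thy1 at 2.83 against 799.6 CPM, the fibroblast activation protein gene Fap at 0.22 against 82.6 CPM, and Acta2 (smooth muscle actin) at 21.3 against 2169 CPM.

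**Figure D1:**
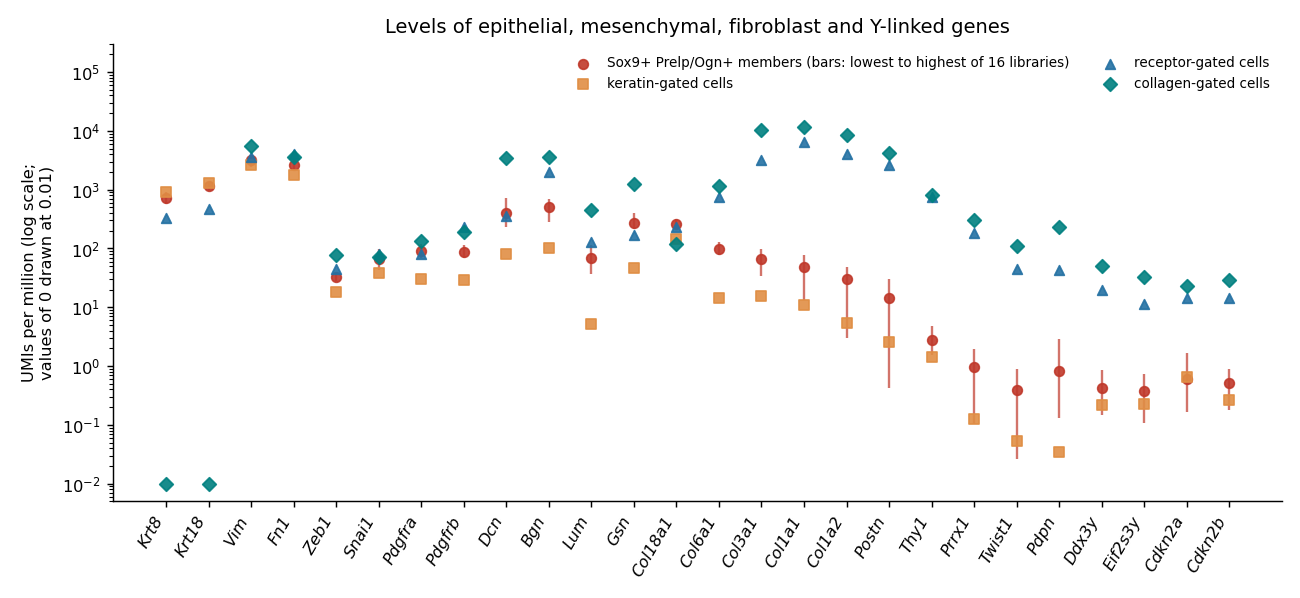
Level of 26 genes in CPM on a log scale, in Sox9+ Prelp/Ogn+ cells (circles, bars from the lowest to the highest of 16 libraries), keratin-gated cells (squares), receptor-gated cells (triangles), and collagen-gated cells (diamonds). Krt8 and Krt18, which the gate sets to 0 in collagen-gated cells, lie close in the circles and squares, and from Thy1 rightward the triangles and diamonds lie above both.

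Genes of the Y chromosome, which the cells of the male hosts carry, were near 0 in the Sox9+ Prelp/Ogn+ cells. Ddx3y, Eif2s3y, Kdm5d, and Uty together were at 0.946 CPM (0.276–1.69 over libraries), against 0.576 CPM in keratin-gated, 40.5 CPM in receptor-gated, 95.8 CPM in collagen-gated, and 85.2 CPM in Ptprc-positive cells. A Y-linked UMI was found in 1.35% of the Sox9+ Prelp/Ogn+ cells and in 43.6% of the shallower Ptprc-positive barcodes. Xist, the RNA that coats an inactive X chromosome, was at 0.0478 CPM. The tumor suppressors Cdkn2a and Cdkn2b were at 0.609 and 0.516 CPM, against 23.1 and 29.5 CPM in collagen-gated cells. The sex chromosomes and the Cdkn2a locus of the implanted line were not measured here. Markers of other connective tissue and nerve cells were low. The 11 cartilage genes summed to 1.92 CPM, with Matn1 at 0, Col2a1 at 0.0523 CPM, and Acan at 0.0703 CPM. The 8 Schwann cell genes summed to 17.1 CPM, of which S100b gave 10.7, and the 8 endothelial genes to 2.11 CPM. Scx, a tendon transcription factor, was at 47.4 CPM, close to its 39 CPM in keratin-gated cells. These values went against the word stromal in the sense of host fibroblasts, and the cells are called Sox9+ Prelp/Ogn+ throughout.

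A small minority differed from the rest in these respects. Col1a1 and Col1a2 UMIs were absent in 27313 of the Sox9+ Prelp/Ogn+ cells (87.6%), numbered 1–2 in 2999 (9.62%) and 3–9 in 722 (2.32%), and reached 10 or more in 140 (0.449%). In the first 3 classes Krt8 and Krt18 together were at 1917, 1619, and 1352 CPM, and the Y-linked genes at 0.565, 0.556, and 0.815 CPM. In the 140 cells with 10 or more, keratins were at 740.0 CPM, Y-linked genes at 59.6 CPM, and Cdkn2a at 26.6 CPM, and 60% of them had a Y-linked UMI against 1.04% of those with no type I collagen. Even so, 54.3% of these 140 cells had 3 or more keratin UMIs. They were deeper, with a median of 26534.5 UMIs against 17786 in the cells with no type I collagen. Whether some of these barcodes held more than 1 cell was not tested. Their median Sox9 count was 4 UMIs, against 11 in the cells with no type I collagen. The 250 Sox9+ Prelp/Ogn+ cells with no Krt8 or Krt18 UMI (0.802%) likewise had Y-linked genes at 48.6 CPM and type I collagen at 8942 CPM. The share, agent, receptor-gated, and keratin-gated comparisons were therefore repeated without cells of 10 or more type I collagen UMIs, an alternative chosen after the data were seen.

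**Figure D2:**
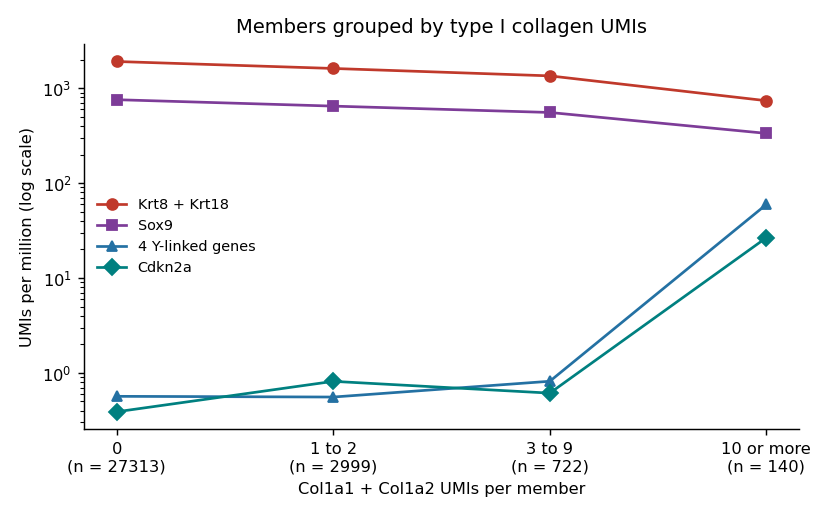
Sox9+ Prelp/Ogn+ cells in 4 classes of Col1a1 + Col1a2 UMIs per cell (x axis, with the number of cells), against the level in CPM on a log scale of Krt8 + Krt18 (red circles), Sox9 (purple squares), 4 Y-linked genes (blue triangles), and Cdkn2a (green diamonds). The Y-linked genes stay under 1 in the first 3 classes and reach 59.6 in the class of 10 or more, where keratins are at 740.0.

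Clustering of the 77452 Ptprc-zero barcodes gave 25 clusters, and the Sox9+ Prelp/Ogn+ cells were spread over several of them. Cluster 1, with Cxcl15 and Id3 among its leading genes, held 43.7% of the Sox9+ Prelp/Ogn+ cells, which made up 79.5% of that cluster. Cluster 7, led by Ecrg4, Myoc, Hsd11b1, and Lum, held 10.4%, with Krt8 and Krt18 together at 913 CPM against 1801 CPM in cluster 1. Cluster 2, with the sterol synthesis gene Fdps among its leading genes, held 11.9%, cluster 5, led by Arrdc2 and Ptgds, 9.27%, and cluster 3, led by the mitotic genes Cenpf, Ube2c, and Ccna2, 8.85%. Cluster 10, led by the interferon-induced guanylate-binding proteins Gbp5 and Gbp2, held 5.5%, with Cd74 at 3398 CPM. Cluster 16, led by Col1a2, Col1a1, and Postn, held 116 of the Sox9+ Prelp/Ogn+ cells (0.372%). Its Y-linked genes were at 83.7 CPM, against 0.38 CPM in cluster 1 and 0.436 CPM in cluster 7. Leading genes defined the clusters and are no result of a test.

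Against receptor-gated cells, the Sox9+ Prelp/Ogn+ cells were lower in pericyte, collagen, fibroblast, and Y-linked genes and higher in genes of antigen presentation. UMIs were summed over 6 pools with at least 20 cells of each kind, and 14531 genes were tested by edgeR with pool as a block, after leaving out genes of the rule and gates. A gene was called at adjusted P < 0.05 and a log2 fold change beyond 0.5. Of all genes, 1532 were called higher (10.5%) and 1824 lower (12.6%), with a median log2 fold change of 0.11. The balance moved with the scaling, to 1070 higher and 1998 lower with RLE size factors. By DESeq2, which also changed the test and the genes tested, it was 976 higher and 2420 lower. The whole-tumor libraries alone (3 pools) gave 1113 calls in all. All 12 myofibroblast and pericyte genes were called lower (median log2 fold change -7.61). Rgs5, a regulator of G protein signaling known from pericytes, was at 0.553 against 1052 CPM (log2 -11.28, SE 0.73). The potassium channel genes Kcnj8 and Abcc9 were at 0.0483 against 83.9 CPM and 0.0244 against 64.3 CPM. The pericyte gene Higd1b was at 0.089 against 133 CPM, and Dlk1, a noncanonical Notch ligand, at 0.00867 against 59.8 CPM. These 4 genes were called lower, but the Sox9+ Prelp/Ogn+ cells held too few UMIs of them for a fold change. Of 17 collagen genes tested, 16 were lower and none higher (median -4.38), and the exception, Col18a1, a basement membrane collagen, had a log2 of 0.34 that did not pass. Of 18 fibroblast genes, 11 were lower and 1 higher (Gsn, gelsolin, log2 0.93). Dcn (decorin) and Lum (lumican) were not called (log2 0.61 and -0.061). All 4 Y-linked genes were lower (median -5.35). Receptor-gated cells were thus led by genes known from pericytes.

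Of 32 genes tested of a list of MHC and IFN-γ response genes, 19 were higher than in receptor-gated cells and 3 lower (median 0.67). The class II gene H2-Aa was at 559 against 124 CPM (log2 2.81, SE 0.32, adjusted P = 7.16e-06), and Cd74, the class II invariant chain, at 1796 against 468 CPM (log2 2.55, SE 0.30, adjusted P = 1.09e-05). Ptgds, which makes prostaglandin D2, was higher by 6.11 (139 against 2.31 CPM), and Hsd11b1, which regenerates active glucocorticoids, by 4.76 (67.5 against 2.87 CPM). S100a4 (log2 2.52) was the 1 gene of 15 in the mesenchymal list that was higher, 9 were lower, and Vim was not called (log2 -0.0014 with an SE of 0.15). In the Sox9+ Prelp/Ogn+ cells Cd74 was at 1734 CPM and Lyz2, a macrophage lysozyme, at 16.9 CPM, whereas Ptprc-positive cells had Cd74 at 12936 and Lyz2 at 2176 CPM. C1qa and Tyrobp, further macrophage and myeloid genes, were at 13.9 and 12.3 CPM against 1994 and 1601 CPM. Ciita, the activator of class II genes, was at 6.89 CPM against 3.42 CPM in keratin-gated cells.

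Against the collagen-gated cells, which held no keratin and could hold Prelp and Ogn (57.2% had 3 or more UMIs of these), the same lists stood further apart. Over 7 pools and 15093 genes, 4414 genes were called higher (29.2%) and 3506 lower (23.2%), with a median over all genes of 0.20. All 18 fibroblast genes tested were lower (median -7.77), as were all 12 myofibroblast and pericyte genes, 16 of 17 collagens (median -6.45), and all 8 small leucine-rich proteoglycans tested (median -4.22). Dcn was at 385 against 3579 CPM (log2 -3.14, SE 0.18), Bgn (biglycan) at 521 against 3884 CPM, and Lum at 66.9 against 464 CPM. Sparc, a matricellular collagen-binding protein, was at 649 against 19160.5 CPM (log2 -4.75, SE 0.075). Among genes on the other side, S100a4 was at 1216 against 162 CPM (log2 3.10, SE 0.19), Spp1 at 1436 against 335 CPM (log2 2.32, SE 0.16), and Scx at 47.7 against 3.99 CPM (log2 3.54). Msln (mesothelin), a surface protein of mesothelium and pancreatic carcinoma, was at 102 CPM and Areg (amphiregulin), a growth factor, at 155 CPM, against 0.14 and 0.543 CPM in collagen-gated cells, whose counts of these genes were too few for a fold change. Of 32 MHC and IFN-γ genes, 23 were higher and 4 lower (median 1.10).

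Against keratin-gated cells, which lacked Prelp and Ogn, the Sox9+ Prelp/Ogn+ cells had more of the other small leucine-rich proteoglycans and of the collagen VI chains Col6a1 and Col6a2. They had less of the cell cycle and of hypoxia and glycolysis. Over 8 pools and 15262 genes, 2589 were called higher (17.0%) and 1924 lower (12.6%), around a median of 0.0098. All 8 small leucine-rich proteoglycans tested were higher (median 2.78). Prelp and Ogn, of the same family, set both groups apart, so that the choice of cells favored genes expressed along with them. When both groups were limited to cells under 10 type I collagen UMIs, 2465 of 15054 genes were called higher (16.4%) and 1812 lower (12.0%), and all 8 proteoglycans were higher (median 2.21). With no limit on type I collagen, Dcn was at 419 against 84.2 CPM (log2 2.30, SE 0.19) and Bgn at 513 against 111 CPM (log2 2.12). Lum was then at 68.8 against 5.75 CPM (log2 3.48, SE 0.11). Col6a1 and Col6a2, chains of the beaded-filament collagen VI, were higher by 2.57 and 2.96, and in the cells of low type I collagen by 2.61 and 3.03. The collagen and fibroblast lists depended on the few cells with type I collagen. Of 20 collagens 15 were higher and 1 lower (median 1.75), against 9 and 2 of 17 (median 0.56) without those cells. Col1a1 and Col1a2, on which those cells were left out, are in the collagen list, so that their own change is no result. Of genes the limit did not use, Col6a3 went from 1.33 to -0.71 and Postn from 2.45 to 0.36. Of the fibroblast genes 18 of 20 were higher (median 2.50), and 11 of 15 without those cells (median 1.47). Among them Gsn was higher by 2.39 (SE 0.032), Pdgfra by 1.48, and Pdgfrb by 1.44.

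All 20 cell cycle genes were lower than in keratin-gated cells (median -1.09), as they were in the cells of low type I collagen (median -1.07). Summed, these genes were at 1243 CPM in the Sox9+ Prelp/Ogn+ cells and 2443 CPM in keratin-gated cells. They were at 1142 CPM in receptor-gated, 993 CPM in collagen-gated, and 1334 CPM in Ptprc-positive cells, so that only keratin-gated cells stood far above. Mki67, the proliferation antigen, was at 57.2 against 112 CPM (log2 -1.08, SE 0.058, adjusted P = 7.15e-09), and the replication helicase gene Mcm5 had a log2 fold change of -1.47. Of 15 hypoxia and glycolysis genes 9 were lower than in keratin-gated cells and none higher (median -0.62). Summed, they were at 3809 CPM, against 5731 CPM in keratin-gated, 4287 CPM in receptor-gated, and 2791 CPM in collagen-gated cells. The genes furthest below keratin-gated cells, among those of at least 50 CPM, included Ero1l, an oxidase of protein folding in the endoplasmic reticulum (49.8 against 161 CPM, log2 -1.78), Asns, which makes asparagine (log2 -1.62), Mthfd2, an enzyme of mitochondrial folate metabolism (log2 -1.64), and Hmga1, a chromatin protein (142 against 405 CPM, log2 -1.64). Those furthest above included Hsd11b1 (62.6 against 3.68 CPM, log2 4.12, SE 0.28), Ecrg4, a secreted peptide precursor (log2 4.01), the chemokine gene Cxcl15 (log2 2.88), Tns1, a focal adhesion protein (log2 2.65), and C3, the central complement component (log2 2.55). Of 18 genes of TGF-β signaling 10 were higher and none lower (median 0.55), and of 32 MHC and IFN-γ genes 11 were higher and 1 lower (median 0.29). Myc was higher by 0.97 (SE 0.039). Of 14 mesenchymal genes 5 were higher and 1 lower, with Zeb1 higher by 0.76, Snai1 by 0.69, and Vim not called (log2 0.11, SE 0.022). In cells of low type I collagen, 2 of 11 mesenchymal genes were higher and 1 lower (median 0.21). These counts lie near the shares of all genes called in that fit, 16.4% higher and 12.0% lower. Of 10 epithelial genes tested, 4 were lower, among them Krt19 (log2 -1.91) and Epcam (log2 -1.25), and Cdh1 was higher (log2 1.11). Of 12 genes induced by cell dissociation, 6 were higher (median 0.65), and their part in the other differences was not tested. The gates were drawn on single UMIs of low-count genes, so that a cell with few Prelp UMIs could fall on either side by counting error.

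Most matrix protease genes were lower than in collagen-gated cells. Of 20 matrix proteases and inhibitors, 19 were lower than in collagen-gated cells (median -3.55), among them the gelatinase gene Mmp2 (2.71 against 849 CPM, log2 -8.21) and the collagen crosslinking oxidase Lox (log2 -6.60). Against keratin-gated cells, 11 of 20 were higher and 3 lower (median 0.64), and 6 of 19 were higher and 3 lower in cells of low type I collagen (median 0.27). The 3 lower of 19 lie near the share of all genes called lower. In those cells Mmp3 (stromelysin) was higher by 1.37 and Timp1, an inhibitor of metalloproteases, had a log2 of -1.05. In TGF-β signaling, the intracellular transducer Smad3 was higher than in each gate, by 0.64 against keratin-gated, 1.59 against receptor-gated, and 1.63 against collagen-gated cells. The list of 18 did not go with it in the last 2. There, 4 genes were higher and 8 lower than in receptor-gated cells (median -0.38), and 5 higher and 9 lower than in collagen-gated cells (median -0.36). The ligand Tgfb3 was at 33.9 CPM, between 14 CPM in keratin-gated and 120.1 CPM in collagen-gated cells, and the ligand Tgfb2 at 0.613 CPM against 108 CPM in collagen-gated cells. Bmp4, a bone morphogenetic protein, was at 238 CPM (217–265 over libraries), against 155 CPM in keratin-gated and 5.68 CPM in collagen-gated cells. The BMP target Id1 was higher than in keratin-gated cells by 1.21. Of 20 chemokine and cytokine genes, 8 were higher than in keratin-gated cells and 3 lower (median 0.20), and in cells of low type I collagen 4 of 19 were higher and 3 lower (median 0.0062). The last counts lie near the shares of all genes called in that fit. Cxcl5, a neutrophil attractant, was at 293 CPM against 129 and 41.9 CPM in keratin-gated and collagen-gated cells, and Cxcl12, a chemokine made by fibroblasts, at 1.39 against 0.0401 and 205 CPM. Cxcl12 was too low to be tested in cells of low type I collagen. Il33 was higher than in keratin-gated cells by 1.49 (SE 0.11) and was -0.91 against collagen-gated cells. Of 11 Sox9 partners and Hippo targets, 4 were higher than in keratin-gated cells and none lower (median 0.055). Ccn1, a matricellular target of the Hippo pathway, was at 2413 CPM against 1278.5 CPM in keratin-gated cells (log2 0.86), whereas Yap1 itself was not called (log2 0.035, SE 0.027). Other factors that act with Sox9 in cartilage were low, with Sox5 at 0.653 CPM and Sox6 at 0.0359 CPM.

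**Figure D3:**
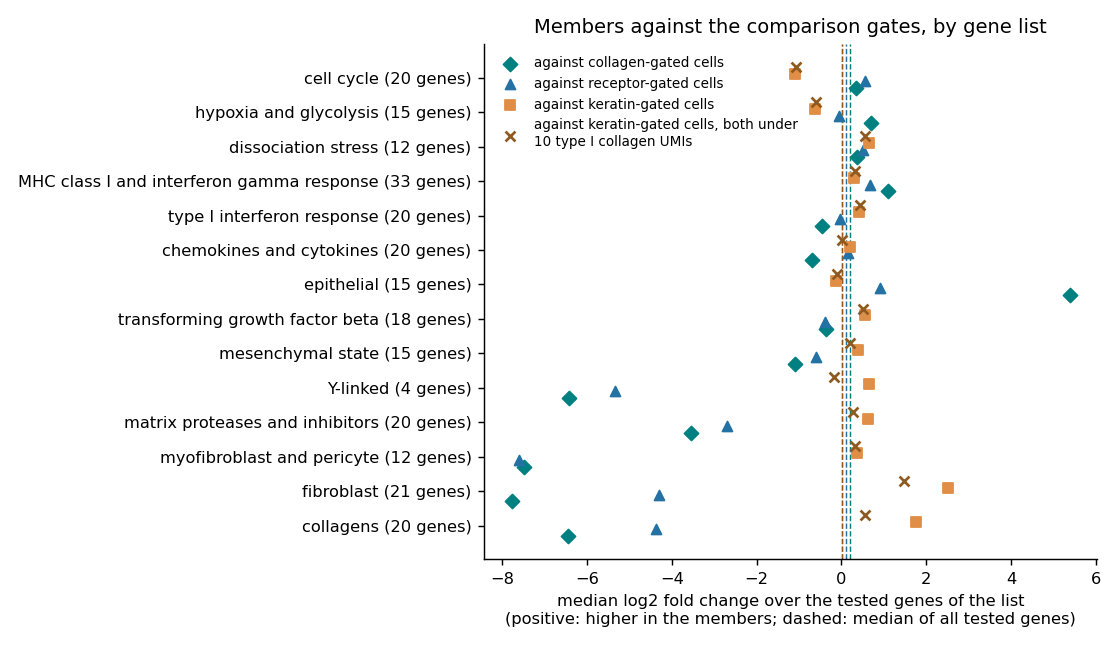
Median log2 fold change of the tested genes in 14 gene lists (x axis, positive where the Sox9+ Prelp/Ogn+ cells were higher), against collagen-gated cells (diamonds), receptor-gated cells (triangles), keratin-gated cells (squares), and keratin-gated cells with both groups under 10 type I collagen UMIs (crosses). Dashed lines mark the median of all tested genes, and collagen, fibroblast, and pericyte lists lie far to the left against collagen-gated cells (medians of -6.45, -7.77, and -7.48), while collagens and fibroblast genes lie to the right against keratin-gated cells (medians of 1.75 and 2.50).

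Along Prelp and Ogn, Sox9+ cells went from cycling and glycolytic to less cycling with more class II RNA. All Sox9+ barcodes under the same limits and with at least 3000 UMIs, with any amount of Prelp and Ogn, were ordered by the Prelp and Ogn UMIs among 3000 UMIs drawn at random from each, which takes depth out of the ordering. The 6 bins, at 0, 1, 2, 3–4, 5–9, and 10 or more UMIs, held 27325, 9707, 5656, 5916, 4243, and 776 barcodes, with median depths from 24447 down to 12517.5 UMIs. Of these, 7214, 7400, 5339, 5916, 4243, and 776 were Sox9+ Prelp/Ogn+ cells by their full counts. Most of the Sox9+ Prelp/Ogn+ cells thus lay in the bins at 0, 1, and 2, and the upper bins describe a smaller part of them. From the lowest to the highest bin, the 20 cell cycle genes together went from 2247 to 249 CPM and Mki67 from 103 to 6.2 CPM. Ldha, the lactate dehydrogenase of glycolysis, went from 1639 to 653 CPM. The class II genes took the opposite course, Cd74 from 967 to 2748 CPM and H2-Aa from 284 to 843 CPM, as did Myc (105 to 253 CPM), Gprc5a (197 to 388 CPM), and Dcn (155 to 807 CPM). Keratins changed less, Krt8 from 879 to 572 CPM and Krt18 from 1263 to 951 CPM, and the Y-linked genes lay between 0.67 and 1.21 CPM in every bin. The 19 immune genes other than Cd74 were at 103 CPM in the lowest bin and 147 CPM in the highest.

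Levels at both ends of the range were also taken inside each library, for fewer genes. The ratio of the level at 5 or more Prelp and Ogn UMIs to that at 0 was 0.104–0.198 for the cell cycle genes over the 16 libraries (median 0.144) and 0.509–0.678 for hypoxia and glycolysis. It was 1.77–4.31 for Cd74 and 1.88–4.38 for H2-Aa, above 1 in every library, and 0.556–0.959 for Krt8 and Krt18. Y-linked genes were at no more than 1.79 CPM at 0 and 1.87 CPM at 5 or more in any library, too few UMIs for a ratio. These ratios describe bins made from genes of the rule and were not tested. Depth and dissociation genes moved with the bins (Junb, an immediate-early gene, from 2538 to 4274 CPM), and their part in the courses was not tested.

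**Figure D4:**
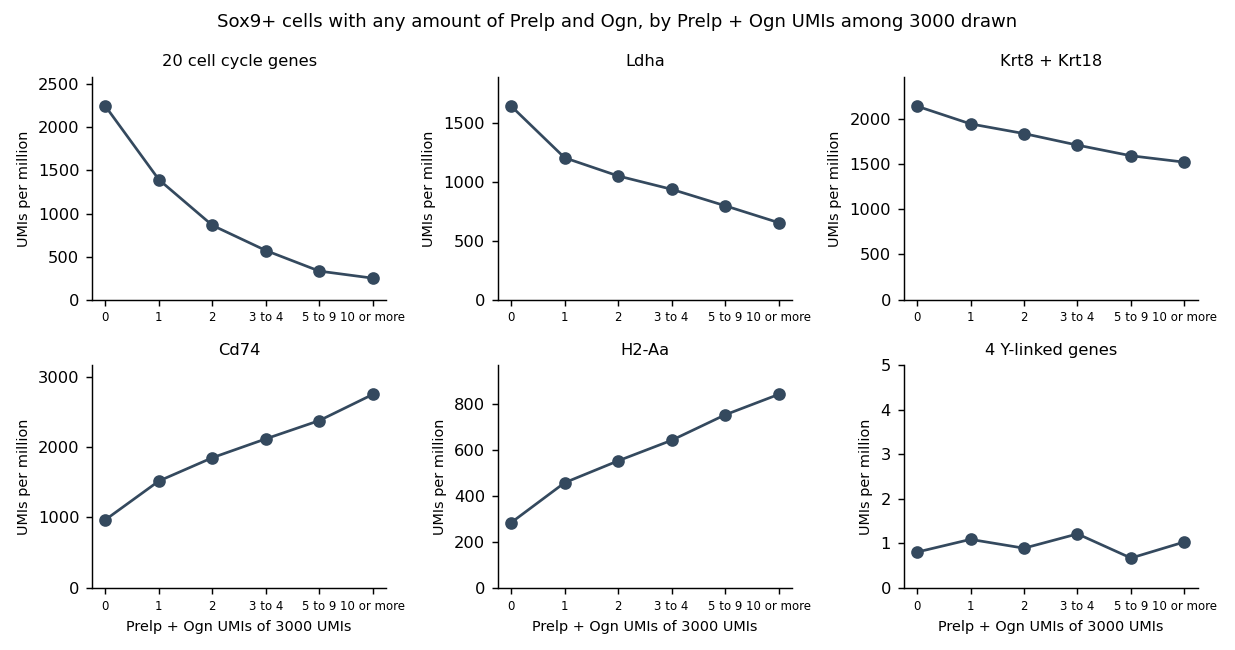
Levels in CPM (y axes, from 0) of cell cycle genes, Ldha, Krt8 + Krt18, Cd74, H2-Aa, and 4 Y-linked genes in Sox9+ cells binned by Prelp + Ogn UMIs among 3000 drawn UMIs (x axes), as sums over the cells of a bin. Cell cycle genes and Ldha go down and Cd74 and H2-Aa go up across the 6 bins, while the Y-linked genes stay at 1.21 or less.

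The share of Sox9+ Prelp/Ogn+ cells among barcodes within the limits was higher in every Percoll library than in its whole-tumor partner, and no agent's difference passed the test. The pool share is the mean of the shares in both libraries of a treatment. It was 21.7% with PancVAX, 23.5% with PancVAX + Anti-PD-1, 30.3% with PancVAX + Anti-CTLA-4, and 30.2% with all 3 agents. Without the vaccine it was 27% in Isotype Control, 22.6% with Anti-PD-1, 23.8% with Anti-CTLA-4, and 26.3% with both. Pools with and without each agent overlapped. The share was 27.6% ± 3.13 (SD, n = 4 pools) with anti–CTLA-4 and 23.7% ± 2.33 (n = 4) without it, a difference of 3.94 percentage points (2-sided exact permutation test over 70 splits, P = 0.114, Benjamini-Hochberg adjusted over the 3 agents 0.343). Within whole-tumor libraries this difference was 3.13 and within Percoll libraries 4.75 percentage points. It fell to 1.20 under the limits the study set on UMIs and genes and to 0.639 when barcodes were thinned to 3000 UMIs (exact permutation P = 0.8). For PancVAX the share was 26.4% ± 4.45 against 25% ± 2.08 (difference 1.45, exact permutation adjusted P = 0.857), with 1.86 in whole-tumor and 1.04 in Percoll libraries. As a share of Ptprc-zero barcodes the difference for PancVAX was 5.35 percentage points (exact permutation P = 0.257). With single libraries left out, the difference among all barcodes ran from 0.384 (without the Percoll library of PancVAX + Anti-CTLA-4) to 2.52 (without its whole-tumor library). The pool of the library left out then kept the share of its other library. No pool was left out, so this range reflects the gap between both preparations of a pool. For anti–PD-1 the difference was -0.0669 percentage points (exact permutation adjusted P = 0.971), with 0.427 in whole-tumor and -0.561 in Percoll libraries.

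The rule needs 4 UMIs of low-count genes, so that a share of cells depends on depth. When every barcode of at least 3000 UMIs was thinned to 3000 before the rule was applied, 9375 of 94374 barcodes met it, and 286 of the original cells were too shallow to enter. Shallower barcodes left the total, which was 120912 before thinning. Ptprc was thinned as well, so that a Ptprc-positive barcode could enter. The part of these changes in the thinned shares was not tested. The thinned shares of the 4 PancVAX pools were 9.65, 12.2, 12.3, and 14.6%, and those of the other pools 8.04, 6.32, 8.37, and 8.19%, without overlap. The difference of 4.45 percentage points had the smallest P that 70 splits allow (exact permutation, 0.0286), and 0.0857 after adjustment over the 3 agents. Libraries with PancVAX tended to be shallower, though the ranges overlapped. In whole-tumor libraries the medians were 7101–9736 UMIs per barcode with PancVAX and 8853–12791 without it. In Percoll libraries they were 5164.5–12371 and 11083–14503. Prelp itself was higher in PancVAX pools. The selection used Prelp, so a share cannot be told apart from the Prelp level of a cell.

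Sox9+ Prelp/Ogn+ cells made up 22.8% ± 2.66 of barcodes in whole-tumor libraries (19.4–26.6%, n = 8) and 28.6% ± 4.18 in Percoll libraries (24–34.5%, n = 8). The Percoll share was higher in 8 of 8 treatments. Percoll libraries were also deeper per barcode than their whole-tumor partners, except in PancVAX + Anti-PD-1. There the medians were 5164.5 UMIs in the Percoll and 7101 in the whole-tumor library, and the ratio of the shares was 0.942. The mean log2 ratio of whole-tumor to Percoll was -0.33 (SD 0.11), a ratio of 0.798 (0.75–0.942), with P = 0.00781 by a 2-sided exact paired permutation test, the smallest that 256 sign flips allow. Among barcodes within the limits the study set on UMIs and genes, the log2 ratio was -0.33 and did not pass (exact permutation P = 0.102). Barcodes with no Ptprc UMI made up 59.9–69.3% of Percoll and 56.3–71.4% of whole-tumor libraries, so that an enrichment of Ptprc-positive barcodes by Percoll was not seen.

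**Figure D5:**
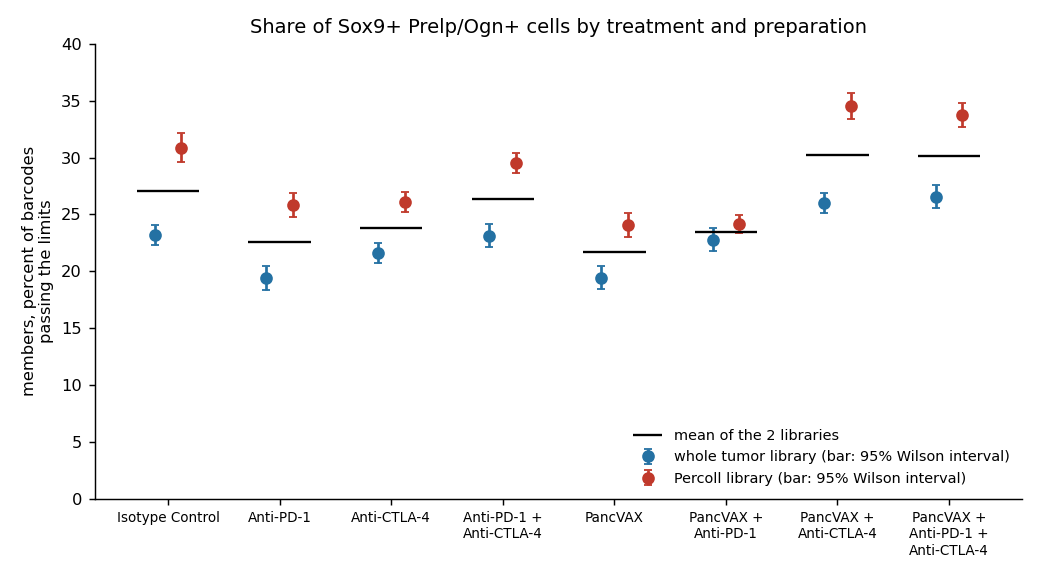
Share of Sox9+ Prelp/Ogn+ cells among barcodes within the limits (y axis, percent, from 0) for each treatment, in the whole-tumor library (blue) and the Percoll library (red), with 95% Wilson intervals that cover counting error only and a line at the mean of the pair. The Percoll point lies above the whole-tumor point in all 8 treatments, least so in PancVAX + Anti-PD-1.

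No gene passed the threshold for any of the 3 agents when UMIs of the Sox9+ Prelp/Ogn+ cells were summed by pool and tested by edgeR with the other agents as covariates. Of 15316 genes, 0.0% were called for each agent. An unadjusted P under 0.05 was found in 2557 genes for PancVAX (16.7%), 953 for anti–PD-1 (6.22%), and 1260 for anti–CTLA-4 (8.23%), and DESeq2 on the same sums called 48, 31, and 59 genes. The smallest adjusted P values by edgeR were 0.0917, 0.763, and 0.24. When each library was taken as a unit with preparation as a covariate, 213, 13, and 124 genes were called. Both libraries of a treatment then count as separate, and the sources used here do not say whether they shared mice.

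Il33, an alarmin cytokine of epithelial and stromal cells, was the gene of the chemokine and cytokine list with the smallest adjusted P for PancVAX. Its levels in the pools of PancVAX, of PancVAX with both antibodies, of PancVAX + Anti-PD-1, and of PancVAX + Anti-CTLA-4 were 58.6, 62.7, 48.8 and 73.5 CPM, and in the pools of both antibodies, Anti-CTLA-4, Anti-PD-1, and Isotype Control 51.9, 49, 37.1 and 43 CPM. The ranges overlapped, since PancVAX + Anti-PD-1 fell within the levels without vaccine. The log2 fold change with PancVAX was 0.39 (SE 0.065, unadjusted P = 0.000355, adjusted P = 0.0917) and that with anti–CTLA-4 0.39 (adjusted P = 0.271). In the same order, Gprc5a was at 279.8, 352, 324 and 369.9 CPM with PancVAX and 318, 279, 252 and 228 CPM without it (log2 0.28, SE 0.049, adjusted P = 0.0925). Its highest level without vaccine, with both antibodies, exceeded its lowest with vaccine. Ccl5, a T cell–attracting chemokine, was at 13.6, 31.8, 64.1 and 12.2 CPM with PancVAX and 8.28, 7.71, 18.2 and 6.31 CPM without (log2 1.35, SE 0.28, adjusted P = 0.134), highest in PancVAX + Anti-PD-1, whose Percoll library also had the most immune RNA in these cells. The part of that RNA in the Ccl5 level was not tested. Prelp, which selected the cells and was not tested, was at 458, 429, 466 and 410.4 CPM with PancVAX and 365, 310.4, 372 and 348 CPM without it, with no overlap, as was seen in 8.65% of all genes tested.

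No gene of cell identity was called for any agent. Krt8 was at 663, 737, 598 and 794 CPM with PancVAX and 886, 677, 580.1 and 645 CPM without, in the same order (log2 -0.023, SE 0.095, adjusted P = 0.928), and its log2 with anti–CTLA-4 was 0.37 (SE 0.095, adjusted P = 0.5). Vim had log2 fold changes of 0.23 with PancVAX, 0.16 with anti–PD-1, and 0.12 with anti–CTLA-4, none called. Cd74 ran from 946 CPM in PancVAX + Anti-CTLA-4 to 2243 CPM in PancVAX + Anti-PD-1 + Anti-CTLA-4, with 1332 CPM in Isotype Control. Krt19 ran from 1.46 to 25.4 CPM over pools (anti–CTLA-4 log2 2.21, adjusted P = 0.421). The median over all genes was 0.0084 for PancVAX. With PancVAX the median log2 fold change of the tested genes was -0.01 for the MHC and IFN-γ list, 0.10 for type I IFN response, -0.17 for cell cycle, -0.09 for hypoxia and glycolysis, 0.04 for collagens, and 0.44 for small leucine-rich proteoglycans, with no gene called in any of them.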

How the data were processed

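Single-cell RNA-Seq (10x Genomics 5′ chemistry) was examined in 16 RNA libraries, grouped by their GEO labels into 8 treatments with a whole-tumor and a Percoll library each. Alignment to mm10 and counting were done by the authors in Cell Ranger 4.0.0, and the deposited values are raw UMI counts per gene and barcode. The deposited T cell receptor contigs, with UMI counts, cover the 8 Percoll libraries. The number of columns of per-sample values left unmapped was 0.

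Barcodes with at least 1000 UMIs and under 10% mitochondrial UMIs were kept, no doublet caller was run, and no upper limit was set. The members, gates, and gene lists were chosen with earlier results of these data known. The collagen-gated gate and the comparison without cells of 10 or more type I collagen UMIs were added after the data were seen. UMIs were summed by pool. Gate comparisons took pools with at least 20 cells of each kind, but fewer were allowed for the stricter form of the receptor gate. Sums were tested with edgeR 4.0.16 (R 4.3.3) by its quasi-likelihood test, after TMM scaling and filterByExpr, with Benjamini-Hochberg adjustment over all genes tested. A gene was called at adjusted P < 0.05 and a log2 fold change beyond 0.5. Agent tests left out the genes of the rule. Gate tests had pool as a block and left out the genes of the rule and of the gates, and Gprc5a, Matn2, and Mxra8. Named genes were those of the lists, where a list is described, and up to 10 each furthest above and below with a mean of at least 50 CPM in the higher group. Alternatives used DESeq2 1.42.0, other scaling and filters, stricter limits, and each library left out in turn. Shares were compared over pools by exact permutation (scipy 1.17.1), and clustering used leidenalg 0.10.2. The fits were tested on simulated counts. Intervals cover counting error only. Gene coordinates are those of RefSeq on GRCm38.p6.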

Additional observations from a re-analysis of the deposited data

Results flagged for a closer look

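Of 13 groups of libraries tested for a library apart from the rest, 3 had one, and chance gives this in about 1 in 20 groups. All 3 involved PancVAX + Anti-PD-1. Among the 8 Percoll libraries, its Sox9+ Prelp/Ogn+ cells had the lowest median depth, 13205 UMIs, and the highest immune RNA, 2.58 UMIs of the immune genes per 10000. The ratio of its whole-tumor share to its Percoll share was 0.942, the highest of the 8 treatments.

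The T cell receptor contigs entered no comparison. A contig was found for 64 of 17617 Sox9+ Prelp/Ogn+ cells of the Percoll libraries (0.363%), against 32.4% of Ptprc-positive barcodes of those libraries. At least 3 UMIs of the immune genes were found in 17.6% of the Sox9+ Prelp/Ogn+ cells and in 16.6% of keratin-gated cells.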

How the results depend on the processing

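Of 94 recomputed values of the shares and gene counts, single libraries left out apart, 74 counted as the same. For a share this meant the same direction and side of the threshold. For a gene count it meant a number within a set factor of the main count, whatever the direction of its genes. In the shares and agent tests, leaving out a library kept its pool with the other library alone, so that no pool was left out. The ranges of the shares then reflect the gap between both libraries of a pool. The difference in share with anti–PD-1, which passed no test, turned positive under the limits of the study (1.18 percentage points), under 5% mitochondrial UMIs (0.00258), among Ptprc-zero barcodes (1.47), after thinning (0.539), and in whole-tumor libraries (0.427), and ran from -1.14 to 1.00 with single libraries left out, against 0.384 to 2.52 for PancVAX and 2.87 to 5.01 for anti–CTLA-4. The log2 ratio of whole-tumor to Percoll shares was -0.33 under the limits of the study and did not pass (exact permutation P = 0.102). For PancVAX and then anti–PD-1 and anti–CTLA-4, the genes called were 5, 0, and 1 under the limits of the study, 48, 31, and 59 by DESeq2, 35, 13, and 21 with no filter on low counts, and 213, 13, and 124 by library, where both libraries of a treatment counted as separate. With single libraries left out they were 0 to 1 for PancVAX and 0 for both antibodies. Against receptor-gated cells, 1113 genes were called in whole-tumor libraries, 2585 to 3356 with single libraries left out (2585 without the Percoll library of PancVAX + Anti-PD-1), 5691 with a gate of 10 type I collagen UMIs and no keratin, and 7920 against collagen-gated cells. The limits of the study left too few receptor-gated cells for a fit. The share of calls that were higher was 45.6%, 34.9% with RLE size factors, 28.7% by DESeq2, and 59.9% with the stricter gate. Against collagen-gated cells in place of receptor-gated cells, C3 went to a log2 of -3.66, Gsn to -2.07, and Il33 to -0.91. Against keratin-gated cells, without cells of 10 or more type I collagen UMIs, Col1a2, which set that limit, went to -0.21, Col6a3 to -0.71, and Lox to -0.14, and under the limits of the study Col1a2 to -0.45, Col6a3 to -0.16, Lox to -1.26, and Postn to -1.14. Of 2001 recomputed values of single genes, 1952 kept direction and call and 39 no longer passed. The cause of these changes was not tested. No pairing by replicate was possible because the labels number no replicates and each treatment has 1 pool, and pools matched on the other agents were not paired. The gate comparisons had pool as a block, and the preparations were paired by treatment. Genes near 0 CPM rest on few UMIs, so that the size of a fold change with 1 group near 0 is rough, also within the medians of lists.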
